A study of Homo sapiens with 9 samples.

Results

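The BCL2 family of apoptosis was described here through 10 genes, taken from the 57766 genes of the deposited expression table by their symbols: the effectors BAX and BAK1, the guardians BCL2, BCL2L1 and MCL1, and the BH3-only genes BBC3, PMAIP1, BID, BCL2L11 and BAD. The libraries hold polyadenylated RNA of HEK293 Freestyle cells, a suspension-adapted form of the established kidney-derived human line HEK293, harvested after 36 h in 1 of 3 media. The full medium was untreated Freestyle medium, the depleted medium had been stripped of Zn(II), and the repleted medium was the depleted one with Zn(II) returned; the labels used here give no zinc concentrations. Each medium had 3 libraries, 9 in all, called biological triplicates in the labels. Whether they came from separate cultures is not said, so p-values measure the spread between these libraries. HEK293 cells carry adenoviral genes whose products include a BCL2-like blocker of BAX and BAK1, and these genes were not analysed here.

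Proteins of this family decide whether the outer membrane of the mitochondrion stays closed. BAX and BAK1, once active, assemble into pores that let cytochrome c out, after which APAF1 and caspase-9 form the apoptosome and start the caspase cascade. The guardians hold the effectors and the BH3-only proteins in check, while the BH3-only proteins, named for the single homology domain they share with the rest, carry stress signals to the guardians or straight to the effectors. Much of this control acts on the proteins themselves, and the present data are transcript levels only.

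The expression unit is RPKM, reads scaled to transcript length and library total. Levels of different genes are set side by side here, but they depend on the length used for each gene. RPKM is a share of a library and not an amount per cell. Changes are differences in log2(RPKM + 1), and a gene was called where the adjusted p of limma, a linear model fitted to the 15774 genes that reached 1 RPKM in 3 or more libraries, was under 0.05. All 10 genes passed this filter. The spacing of low values gave an estimated depth of 17000000 to 23500000 reads per library. For the 10 genes this puts between 162 reads (BCL2 in depleted replicate 2, a counting error of 7.9%) and 5850 reads (MCL1 in full replicate 1) behind each value. Reads behind the values of other genes were not estimated. MT2A, the metallothionein transcript that follows cellular zinc, had 184 to 201 RPKM in full, 5.72 to 7.08 in depleted and 90.1 to 96.7 in repleted medium. Of 7 transcripts known from HEK293 cells, all were above 1 RPKM in at least 1 library, and their summed level lay between 836 and 859 RPKM in depleted against 862 to 874 in full libraries. Most of that sum is VIM, which rose from 577 to 665 RPKM, while 5 of the 7 fell in depleted against full medium: NEFL from 31.8 to 6.53, PAX2 from 3.29 to 0.6, KRT8 from 135 to 90.4, KRT18 from 77.4 to 59.2 and LIN28B from 38.3 to 25.2 RPKM. Of 14 measured markers of other cell types, 7 stayed under 1 RPKM in every library, HBB and INS were listed at 0, and the sum was 25.7 to 29.8 RPKM in depleted, 35.4 to 40.8 in full and 32.8 to 35.8 in repleted libraries. Within that sum HBA1 rose 2.95-fold in depleted against full medium, from a low level of 1.41 to 4.15 RPKM. LUM fell 2.56-fold, from 8.96 to 3.5 RPKM, and EPCAM 1.95-fold, from 7.89 to 4.05. ACTA2, the largest part of the sum, had 16.1 RPKM in full and 12.9 in depleted medium, with libraries that overlapped. The part of these shifts in the results below was not tested. In bulk RNA, fewer cells of a type and less RNA per cell cannot be told apart.

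The promoter of BAX, the gene with the largest rise and the highest level of the 10, is shown beside that of BAK1, the other effector, which fell. Both are the 250 bases before the RefSeq transcription start on GRCh38.p14, BAX at chr19:48954625-48954874 on the plus strand and BAK1 at chr6:33580277-33580526 on the minus strand. The expression values rest on the older build hg19, and no other coordinates are given. Capitals mark CACGTG, the E-box, a palindrome bound by factors such as MYC and MITF. The motif was chosen for display after the sequence had been seen.
BAX: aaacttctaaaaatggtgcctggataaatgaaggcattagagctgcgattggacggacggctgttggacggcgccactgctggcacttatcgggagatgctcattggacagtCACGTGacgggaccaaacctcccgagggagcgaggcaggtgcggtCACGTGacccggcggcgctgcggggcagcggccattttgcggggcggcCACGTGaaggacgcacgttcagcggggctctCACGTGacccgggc
BAK1: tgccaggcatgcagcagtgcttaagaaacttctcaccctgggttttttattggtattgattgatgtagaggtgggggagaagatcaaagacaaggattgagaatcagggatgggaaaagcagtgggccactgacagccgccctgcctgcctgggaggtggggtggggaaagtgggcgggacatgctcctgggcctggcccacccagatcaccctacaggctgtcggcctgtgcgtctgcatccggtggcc

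The BAX window held 4 copies of CACGTG, with first bases at -138, -93, -45 and -14 from the start, and the BAK1 window held none. Among all 35116 RefSeq windows of this length, 6.34% held the motif at least once and 5 windows (0.0142%) held 4 or more copies. Windows were found for 9 of the 10 genes, 15 windows in all, since some genes have several starts; MCL1 had none. Beside BAX, a single copy stood in the window of BBC3 and in 2 of the 5 windows of BID. Those 2 windows overlap and hold the same copy, at -106 and -47 from their starts. The motif thus occurred before genes that rose and before one that fell. Of the other motifs searched on both strands, the core of the metal response element was found in 4 member windows as TGCACNC (9.87% of all windows) and in 3 as TGCGCNC (16.8%). The cAMP response element TGACGTCA (1.65% of all windows) and TGATGNAA, a composite site of C/EBP and ATF factors (3.14%) were found in no member window. These matches describe the letters of a short window and not binding.

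The comparison of depleted with full medium asks what changed when Zn(II) was removed. Of the 10 genes, 5 rose (BAX, BBC3, BCL2L11, BCL2L1 and PMAIP1) and 2 fell (BID and BAK1), while BCL2, MCL1 and BAD did not pass. The call rate over the whole table was 60.9% (29.8% upward and 31.2% downward), so the share of family members called was near the background. The median change of the 10 genes was 0.27 and their median absolute change 0.47, against 0.00 and 0.36 over all genes tested. The depleted and full libraries did not overlap for 8 of the 10 genes, against 67.6% of all genes. The members of each role did not move as one: 1 effector rose and 1 fell, 1 of 3 guardians rose, and among the 5 BH3-only genes 3 rose and 1 fell.

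**Figure D1:**
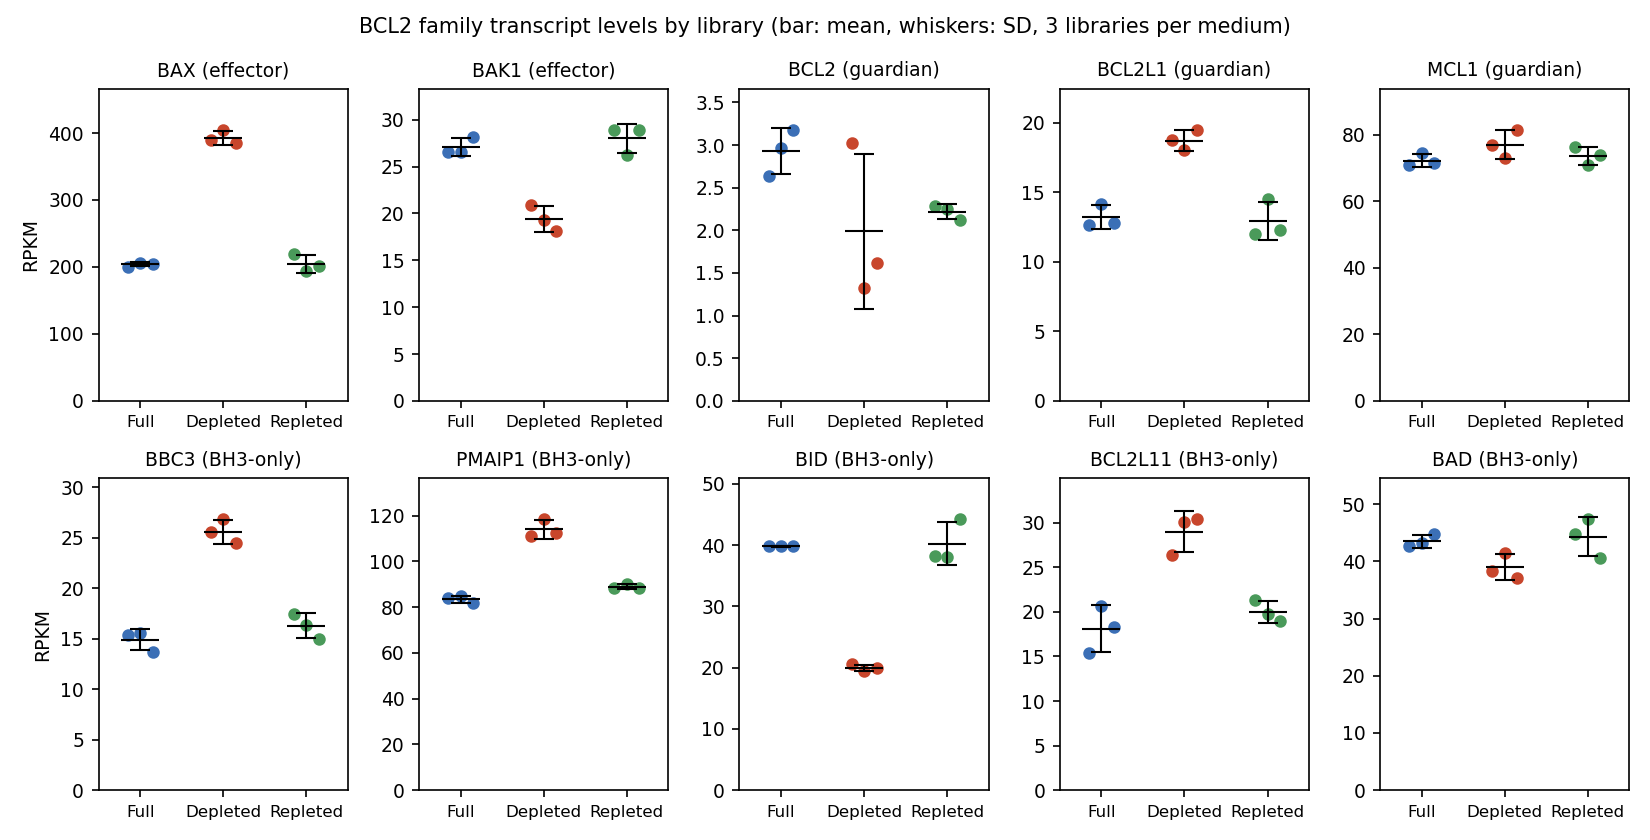
RPKM of each of the 10 genes (vertical axes, from 0) in the 3 media (horizontal axes), with points for libraries, a bar for the mean and whiskers for the SD of 3 libraries. BAX lies between 386 and 405 RPKM in depleted medium and between 194 and 219.6 elsewhere, while BID lies between 19.5 and 20.5 in depleted medium and between 38.1 and 44.3 elsewhere.

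BAX (ENSG00000087088), which forms the mitochondrial pore, had 200.4, 206 and 205 RPKM in full, 390.0, 405 and 386 in depleted and 219.6, 194 and 201 in repleted libraries. Each depleted library was above every other library, and the full and repleted libraries overlapped. Its mean of 204 ± 2.91 RPKM in full medium (SD, n = 3 for this and later values) became 393 ± 10.2 in depleted medium, a 1.93-fold rise (log2 0.95, SE 0.04, limma adjusted p = 1.35e-07). Of the genes tested, 650 had a larger rise (4.12%). BAX took 39.3% ± 0.282 of the summed RPKM of the 10 genes in full and 53.3% ± 0.505 in depleted medium.

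BAK1 (ENSG00000030110), the second pore-forming effector, went the other way. It had 26.6, 26.5 and 28.2 RPKM in full, 20.9, 19.3 and 18.1 in depleted and 28.9, 26.2 and 28.9 in repleted libraries. All depleted libraries were below all others. The means were 27.1 ± 0.959 RPKM in full and 19.4 ± 1.37 in depleted medium, a 1.4-fold fall (log2 -0.46, SE 0.06, limma adjusted p = 1.62e-04). The ratio of BAX to BAK1 was 7.54, 7.76 and 7.27 with full medium, 18.7, 21 and 21.3 after depletion, and 7.59, 7.39 and 6.95 after repletion. The pseudogene BAK1P1, whose reads could be exchanged with BAK1, had between 1.28 and 2.73 RPKM and did not pass the test (log2 -0.17, limma adjusted p = 0.436).

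Among the guardians, MCL1 (ENSG00000143384), a short-lived protein that restrains BAK1 and BCL2L11, was the most abundant transcript. MCL1 had 70.9, 74.4 and 71.3 RPKM in full, 76.7, 72.9 and 81.5 in depleted and 76.1, 70.8 and 73.7 in repleted libraries, and all groups overlapped. The change was 0.09 on the log2 scale (95% interval -0.02 to 0.20, limma adjusted p = 0.122). It passed after median centring (log2 0.14, adjusted p = 0.0371) and without depleted replicate 2 (log2 0.13, adjusted p = 0.0457).

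BCL2L1 (ENSG00000171552), which encodes the guardian BCL-XL and by alternative splicing a short form that promotes death, had 12.6, 14.2 and 12.8 RPKM in full, 18.8, 18.0 and 19.5 in depleted and 12.0, 14.5 and 12.3 in repleted libraries. The depleted libraries were above all others. The rise was 1.42-fold (log2 0.48, SE 0.08, limma adjusted p = 5.50e-04), and the table does not separate the 2 forms.

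BCL2 (ENSG00000171791), the founding guardian, was the least abundant of the 10 genes in every medium. Its 3 full libraries had 2.64, 2.96 and 3.18 RPKM, the depleted ones 3.02, 1.32 and 1.62, and the repleted ones 2.28, 2.25 and 2.12. Depleted replicate 1 lay among the full libraries and the other 2 depleted libraries lay below every full and repleted library. With all 3, the change was -0.43 on the log2 scale (SE 0.19, limma adjusted p = 0.0677), and without depleted replicate 1 it was -0.67 (adjusted p = 0.0018).

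BBC3 (ENSG00000105327) encodes PUMA, a BH3-only protein induced by stress signals. It had 15.4, 15.6 and 13.7 RPKM in full, 25.5, 26.9 and 24.5 in depleted and 17.5, 16.4 and 14.99 in repleted libraries. Every depleted library exceeded every other library. The rise was 1.72-fold (log2 0.74, SE 0.07, limma adjusted p = 1.61e-05).

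BCL2L11 (ENSG00000153094) encodes BIM, an activator of BAX and BAK1 that binds all guardians. Its values were 15.4, 20.7 and 18.3 RPKM in full, 26.4, 30.1 and 30.4 in depleted and 21.3, 19.8 and 18.9 in repleted libraries, and the depleted libraries did not overlap the others. The rise was 1.6-fold (log2 0.65, SE 0.10, limma adjusted p = 3.51e-04). The gene overlaps, on the other strand, the long noncoding transcript listed as MIR4435-1HG, which fell from 17.4 ± 0.218 to 8.43 ± 1.98 RPKM (limma adjusted p = 1.37e-04). Whether counting used the strand is not given in the sources used here, so reads of the overlap cannot be told apart.

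PMAIP1 (ENSG00000141682) encodes NOXA, a BH3-only protein that neutralises MCL1. It was the second most abundant of the 10 genes in every medium, with 84.1, 84.6 and 81.6 RPKM in full, 111, 119 and 112 in depleted and 88.2, 90.1 and 88.3 in repleted libraries. The 3 media did not overlap, with repleted between full and depleted. The rise in depleted medium was 1.37-fold (log2 0.44, SE 0.03, limma adjusted p = 3.51e-06).

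BID (ENSG00000015475), which caspase-8 cleaves to link death receptors to mitochondria, had the largest fall of the 10 genes. It had 39.8, 39.9 and 39.8 RPKM in full, 20.5, 19.5 and 20.0 in depleted and 38.2, 38.1 and 44.3 in repleted libraries. The depleted libraries lay far below the rest, and repleted replicate 3 was the highest of all 9. The fall was 1.99-fold (log2 -0.96, SE 0.06, limma adjusted p = 7.76e-07), and 1230 genes tested (7.8%) had a larger one. BID held 19.9% ± 0.335 of the summed RPKM of the 5 BH3-only genes in full and 8.8% ± 0.51 in depleted medium.

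BAD (ENSG00000002330), a BH3-only protein that 14-3-3 proteins hold in the cytosol when it is phosphorylated, had the smallest change of the 5 BH3-only genes. BAD had 42.6, 43.2 and 44.8 RPKM in full, 38.3, 41.5 and 37.2 in depleted and 44.8, 47.4 and 40.7 in repleted libraries. The depleted libraries lay below all full ones but overlapped the repleted ones. Its change of -0.16 (SE 0.06) missed the threshold (limma adjusted p = 0.0519). BAD passed with the replicate number as a block (adjusted p = 0.0457), after quantile normalization (0.0297), with only the 6 libraries compared (0.0289), and without depleted replicate 2 (0.0285), repleted replicate 2 (0.0378) or repleted replicate 3 (0.0251). BAD overlaps GPR137 on the other strand, which rose from 35.4 ± 4.42 to 47.0 ± 2.37 RPKM (limma adjusted p = 0.00532), and reads of the overlap cannot be told apart.

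**Figure D2:**
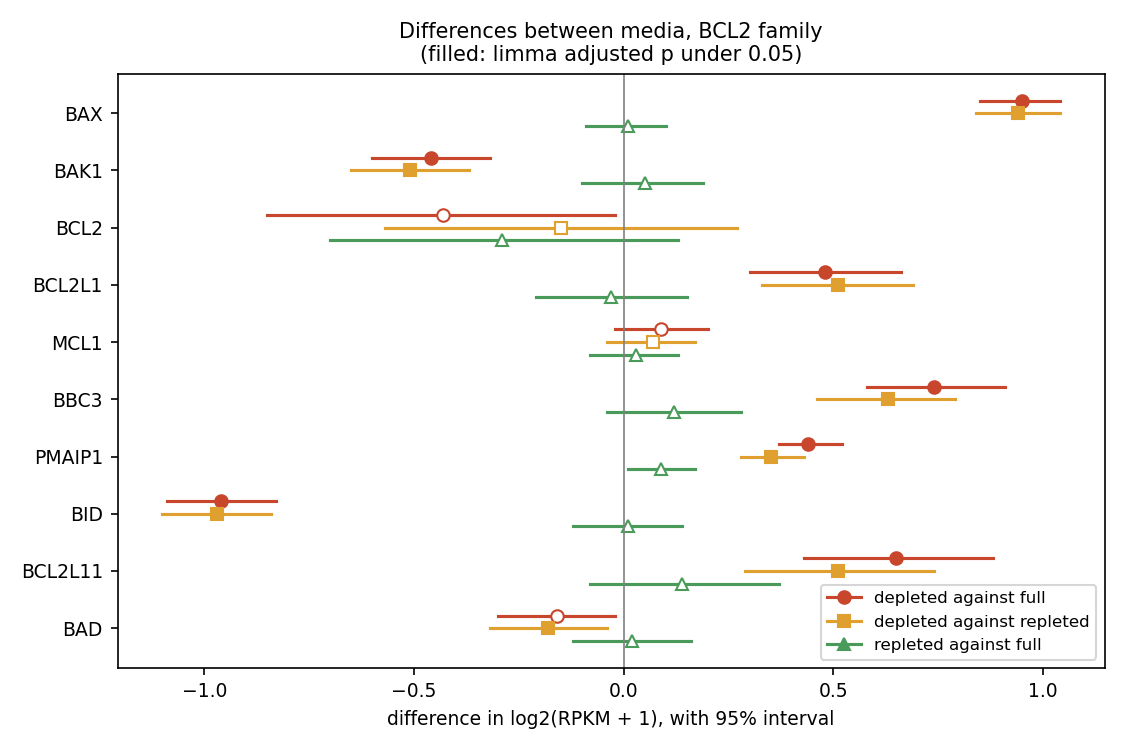
Difference in log2(RPKM + 1) between media (horizontal axis) for each of the 10 genes (vertical axis), with 95% intervals from limma; circles are depleted against full, squares depleted against repleted, triangles repleted against full, and filled symbols passed the test. Circles and squares of the 7 genes called in both depleted comparisons lie on the same side of 0, and no triangle is filled.

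Depleted against repleted medium asks which differences go with Zn(II) itself, since both media went through the depletion. This comparison shares its depleted libraries with the one above, so the values are given side by side and not as a second line of evidence. Here 5 of the 10 genes were higher and 3 lower in depleted medium, against 60.7% of all genes called (29.5% higher and 31.2% lower). Depleted and repleted libraries did not overlap for 7 of the 10, against 65.2% of all genes. The log2 difference was 0.94 for BAX, 0.63 for BBC3, 0.51 for BCL2L11, 0.51 for BCL2L1 and 0.35 for PMAIP1, with limma adjusted p between 1.35e-07 and 0.00161. It was -0.97 for BID (limma adjusted p = 7.45e-07) and -0.51 for BAK1 (8.68e-05). MCL1 (0.07, adjusted p = 0.257) and BCL2 (-0.15, adjusted p = 0.514) did not pass, although BCL2 passed without depleted replicate 1 (-0.38, adjusted p = 0.027).

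BAD was lower in depleted than in repleted medium by a small margin (log2 -0.18, SE 0.06, limma adjusted p = 0.0313), and this call was unstable. It was lost without the expression filter (adjusted p = 0.0676), after median centring (0.0912) and with only the 6 libraries compared (0.0585). It was also lost without depleted replicate 1 (0.0815), depleted replicate 3 (0.106), repleted replicate 1 (0.0769) or repleted replicate 2 (0.111).

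Repleted against full medium asks whether the depletion step left a difference after Zn(II) was returned. By limma, 0 of the 10 genes were called, and 1 had an unadjusted p under 0.05. Of all genes tested 0.0317% were called, 5 lower and none higher, and 1224 had an unadjusted p under 0.05. The single gene was PMAIP1, at 83.4 ± 1.6 RPKM in full and 88.9 ± 1.07 in repleted medium (log2 0.09, unadjusted p = 0.0263, limma adjusted p = 0.592). Full and repleted libraries did not overlap for PMAIP1 and BCL2, 2 of 10 genes, against 12.4% of all genes. The 95% intervals of the difference ran from -0.09 to 0.10 for BAX, from -0.12 to 0.14 for BID and from -0.10 to 0.19 for BAK1, and so left out changes of the size seen in depleted medium. They were widest for BCL2 (-0.70 to 0.13) and BCL2L11 (-0.08 to 0.37). MT2A in repleted medium was below its full level (log2 -1.02, limma adjusted p = 0.00114).

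The order of levels differed between media in the middle of the family. In full medium it ran BAX, PMAIP1, MCL1, BAD, BID, BAK1, BCL2L11, BBC3, BCL2L1 and BCL2, with means from 204 to 2.93 RPKM. The neighbours BCL2L11 and BBC3, and BBC3 and BCL2L1, overlapped in their libraries and are not ordered beyond their spread. In depleted medium BCL2L11 (29 RPKM) and BBC3 (25.6) stood above BID (20), BAK1 (19.4) and BCL2L1 (18.7). There BCL2L11 overlapped BBC3, BID overlapped BAK1 and BAK1 overlapped BCL2L1. In repleted medium the order was that of full medium, with BAD and BID overlapping. The spread within a medium was largest for BCL2 in depleted medium, a coefficient of variation of 45.7%, and smallest for BID in full medium, 0.143%. BID had an estimated 913 reads at most in a library, and counting error alone exceeds 0.143% at that number. Agreement this close is therefore no measure of precision.

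Sums by role describe how the groups of the family stood to each other. The effectors BAX and BAK1 together had 231 ± 3.41 RPKM in full, 413 ± 10.4 in depleted and 233 ± 14.4 in repleted medium. The 3 guardians together had 88.3 ± 2.81, 97.8 ± 5.21 and 88.7 ± 1.51, of which MCL1 made up 81.8%, 78.8% and 82.9%. The effector to guardian ratio was 2.63, 2.54 and 2.67 with full medium, 4.17, 4.6 and 3.93 after depletion, and 2.75, 2.51 and 2.61 after repletion, with no overlap between depleted libraries and the rest. The ratio of the 5 BH3-only genes to the guardians was 2.29, 2.23 and 2.27 in full, 2.25, 2.56 and 2.19 in depleted and 2.32, 2.42 and 2.35 in repleted libraries. The depleted libraries overlapped both other media, while every repleted library lay above every full one. Inside that sum PMAIP1 went from 41.8% ± 0.751 to 50.1% ± 0.0482. These ratios carry no test, and BAX makes up 88.3% of the effector sum in full medium and 95.3% in depleted medium.

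**Figure D3:**
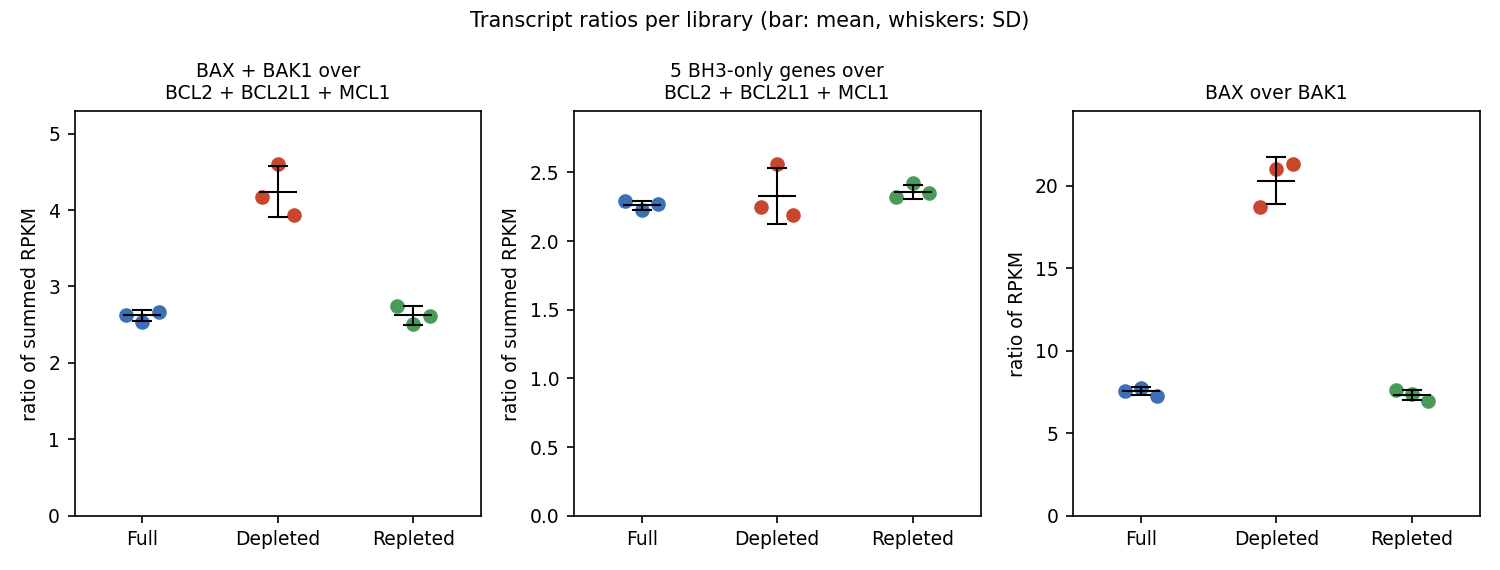
Ratios of RPKM per library (vertical axes, from 0) in the 3 media, with points for libraries, bars for means and whiskers for SD. The effector to guardian ratio is 3.93 to 4.6 in depleted and 2.51 to 2.75 in the other libraries, the BH3-only to guardian ratio of depleted libraries overlaps both other media, and BAX over BAK1 is 18.7 to 21.3 in depleted and 6.95 to 7.76 in the other libraries.

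Of the other 13 genes of the BCL2 family, 8 passed the expression filter. In depleted against full medium 3 rose, 1 fell and 4 did not pass, with a median change of 0.19, against 29.8% higher and 31.2% lower among all genes. BNIP3L, a relative that marks mitochondria for autophagy, had 21.5 ± 0.235 RPKM in full and 40.8 ± 1.56 in depleted medium, a 1.9-fold rise (log2 0.89, SE 0.07, limma adjusted p = 3.02e-06). BMF, a BH3-only gene, rose from 3.43 ± 1.01 to 5.4 ± 0.542 RPKM (limma adjusted p = 0.0121). BCL2L12 fell from 91.8 ± 5.64 to 75.8 ± 4.85 RPKM (log2 -0.27, limma adjusted p = 0.00235). BCL2L13, a mitophagy receptor, rose by 0.17 (limma adjusted p = 0.0175), a call lost without full replicate 2 (0.0528), full replicate 3 (0.0631) or depleted replicate 3 (0.0609).

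The guardian BCL2L2 (log2 0.22, limma adjusted p = 0.0629), BNIP3 (0.15, adjusted p = 0.053) and the BH3-only genes BIK (0.31, adjusted p = 0.127) and HRK (-0.28, adjusted p = 0.0642) did not pass. BCL2L2 passed with the replicate block (adjusted p = 0.0387), median centring (0.0238), quantile normalization (0.0213) and without depleted replicate 3 (0.00487). BNIP3 passed with median centring (0.0166), only the 6 libraries compared (0.0413) and without repleted replicate 1 (0.0469) or 2 (0.0359). HRK passed with only the 6 libraries (0.0385) and without repleted replicate 1 (0.0332) or 2 (0.049), and BIK with quantile normalization (0.0449). Against repleted medium 3 of the 8 were higher and 2 lower, against 29.5% higher and 31.2% lower among all genes. BIK was higher there (0.65, limma adjusted p = 0.00649) and BMF was not called (0.38, adjusted p = 0.0578). The BIK call rests on low levels, 3.97 ± 0.663 RPKM in depleted and 2.17 ± 0.527 in repleted medium. BMF passed with median centring (0.034), quantile normalization (0.0123), only the 6 libraries (0.0192) and without full replicate 1 (0.0178) or 3 (0.0343). HRK was lower (-0.36, limma adjusted p = 0.0272), a call lost with no filter (0.0731), median centring (0.0523), quantile normalization (0.156) and only the 6 libraries (0.0566), and when depleted replicate 1 (0.0652) or 2 (0.0754) or repleted replicate 1 (0.0927) was left out. The read-through transcript BCL2L2-PABPN1, which shares sequence with BCL2L2, rose from 8.29 ± 1.21 to 15.7 ± 1.72 RPKM (limma adjusted p = 0.0029). The effector-like BOK and the guardians BCL2A1 and BCL2L10, with BCL2L14 and BCL2L15, had at most 0.72 RPKM in any library and were not tested.

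Downstream of the pore, 13 of 13 tested genes of released proteins, membrane channels, the apoptosome and its caspases were called, 7 higher and 6 lower (median 0.16), against 29.8% and 31.2% of all genes. CYCS, cytochrome c, fell from 234 ± 7.53 to 157 ± 1.82 RPKM (log2 -0.57, limma adjusted p = 9.11e-07). The channels VDAC1 and VDAC2, the latter known to hold BAK1 at the membrane, fell by 0.53 and 0.48 on the log2 scale, while VDAC3 rose from 81.8 ± 3.62 to 105 ± 1.91 RPKM (log2 0.36, limma adjusted p = 7.52e-05). APAF1 rose from 11.1 ± 0.356 to 16.0 ± 0.99 RPKM (limma adjusted p = 8.99e-05) and CASP9 from 11.3 ± 0.692 to 19.5 ± 1.32 (adjusted p = 5.95e-05). HTRA2, a released protease that counters caspase inhibitors, rose by 0.46.

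In the death receptor route that leads to BID, 4 of 9 tested genes rose and 4 fell (median -0.17), against 29.8% and 31.2% of all genes. One of the falls, RIPK1 (log2 -0.27, limma adjusted p = 0.0314), was called in 9 of 16 alternatives. The receptors TNFRSF10B, from 42.7 ± 1.26 to 58.5 ± 1.0 RPKM, and FAS, from 6.88 ± 1.11 to 11.1 ± 0.855, rose, as did the adaptor FADD (log2 0.32). The initiator caspases CASP8, which cleaves BID, and CASP10 fell, from 17.6 ± 1.47 to 11.3 ± 0.317 and from 4.94 ± 0.719 to 2.71 ± 0.136 RPKM.

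Of 16 transcription factors known to act on BCL2 family genes 10 rose and 3 fell (median 0.27), against 29.8% and 31.2% of all genes. Of the 10, FOXO1 (log2 0.25, limma adjusted p = 0.0418) was called in 6 of 16 alternatives and not with the replicate block (adjusted p = 0.0707), and another was called in 11 of 16. DDIT3, which encodes CHOP, had 5.12 ± 0.858 RPKM in full, 27.0 ± 1.46 in depleted and 4.85 ± 0.42 in repleted medium, a 5.28-fold rise on depletion (log2 2.20, SE 0.11, limma adjusted p = 1.90e-07). ATF4, its activator, rose from 223 ± 6.23 to 319 ± 9.68 RPKM, CEBPB by 1.12 and RELA by 0.41 on the log2 scale. Among the listed factors, MYC and MITF bind the E-box shown above. MYC fell from 42.1 ± 2.57 to 23.6 ± 0.244 RPKM and MITF, named after its values were seen, from 3.93 ± 0.193 to 1.63 ± 0.231. Other factors that bind the E-box were not examined, and a link to BAX was not tested.

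Of 18 genes for ligases, kinases and anchors that act on the family's proteins 6 rose and 7 fell (median -0.08), against 29.8% and 31.2% of all genes. SKP2, a ubiquitin ligase subunit, fell 1.86-fold, from 77.8 ± 2.37 to 41.9 ± 1.17 RPKM. The 14-3-3 genes YWHAZ and YWHAE, whose products bind phosphorylated BAD, fell by 0.48 and 0.24 on the log2 scale. Of their relatives in the list, YWHAH rose by 0.22 (limma adjusted p = 8.88e-04) and YWHAQ fell (log2 -0.20, limma adjusted p = 0.00101), both called in 16 of 16 alternatives. YWHAB fell by 0.09 (limma adjusted p = 0.026) and was called in 11 of 16 alternatives. GSK3B, a kinase that acts on the stability of MCL1, rose by 0.33. In repleted against full medium limma called 0 genes of these 5 lists. Unadjusted p under 0.05 occurred for 2 of 13 genes of the downstream list, 1 of 16 transcription factors and 1 of 18 genes of the protein control list. Over all 15774 genes tested it occurred for 1224.

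**Figure D4:**
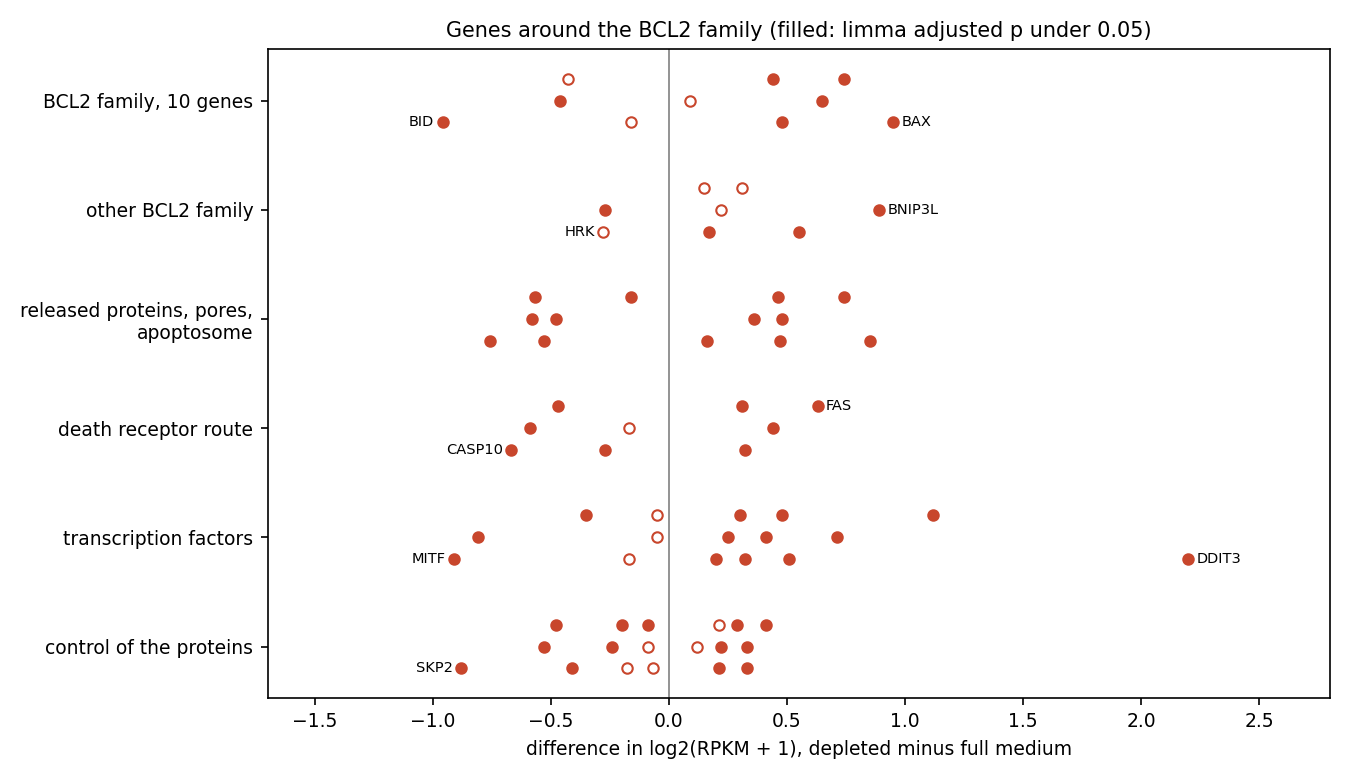
Difference in log2(RPKM + 1) between depleted and full medium (horizontal axis) for each tested gene of 6 lists (vertical axis, with points spread for legibility); filled points passed limma, and some of the outermost genes are named. Each list holds genes on both sides of 0, from -0.96 for BID to 2.20 for DDIT3.

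The genes whose levels followed BAX most closely over the 9 libraries were PRRG2, SDC4 and SPATA24, with Pearson's r of 0.9987, 0.9987 and 0.9984. Those closest to BID were NUCKS1, LRRC59 and BDH2, with r of 0.9992, 0.9988 and 0.9982. Since 6 of the 9 libraries share a level and 3 differ for most such genes, these values largely carry the split between media. As many as 1628 genes had r of at least 0.95 with BAX and 2042 with BID.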

How the data were processed

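The deposited table gives each gene per library as log2 of RPKM plus 1, per the file headers, with 20320 blank rows left out and 0 columns of unknown sample. Gene lengths come from the same deposited table. The submitters' processing notes name builds hg19 and GRCh37 and, without role or order, bedtools 2.25.0.3, Bowtie 1.0.1, RSEM 1.2.6 and BWA 0.7.12-r1039; any scaling between libraries is not given in the sources used here. Short genes (100 to 500 nucleotides) served to estimate depth: 59% to 66.1% of low values were whole reads within 0.1.

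The main fit used limma 3.58.1 (R 4.3.3) with a variance trend, pseudocount 1 and 1 mean per medium over all 9 libraries, with Benjamini-Hochberg adjustment over 15774 genes. It was also run on simulated normal values in which only a small part of the genes was shifted. In depleted against full medium 60.9% of genes were called, so that run says nothing about error rates in these data. Alternatives were a pseudocount of 0.1, other filters, median centring, quantile normalization, 6 libraries, a replicate block, each library left out and a threshold of 0.01 (the 16 others are counted where a number of alternatives is given for a single gene outside the 10); repeats for all genes and for the ratios were added after the data were seen. The members and lists were chosen with earlier results of these data known. Named are all members, tested relatives, and of each other list up to 5 genes ranked by p for depletion against full medium, together with DDIT3, ATF4, CYCS, APAF1 and CASP9; some genes under this rule and 1 list are not reported here. MT2A, the marker genes, VDAC3, YWHAH, YWHAQ, YWHAB, FOXO1, RIPK1, GPR137, MIR4435-1HG, BAK1P1, BCL2L2-PABPN1 and MITF were named after their values were seen. Overlapping genes were read from GENCODE 29 and promoters from RefSeq. Figures were drawn with matplotlib 3.10.9.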

Additional observations from a re-analysis of the deposited data

How the results depend on the processing

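The counts of family members called higher or lower stayed within 1.5 times in every alternative run. The gain or loss of BAD, BCL2 or MCL1 alone does not exceed this limit, so it does not show that the same genes were called. Against full medium BCL2 joined the lower genes without depleted replicate 1. MCL1 joined the higher genes there after median centring and without depleted replicate 2. The result for BAD was the same in 11 of 17 alternatives against full and 9 of 17 against repleted medium. The number of all genes called in repleted against full medium (5) was 3 with a pseudocount of 0.1, 2 without a filter, 2 with only the 6 libraries compared, 2 with the replicate block, 1 at a threshold of 0.01, and from 1 to 9 with a library left out. Uncalled differences changed sign for BCL2 against repleted medium without depleted replicate 2 (0.01). In repleted against full medium this held for BAX after quantile normalization (-0.01) and without full replicate 1 (-0.01) or repleted replicate 1 (-0.05), for BCL2L1 without full replicate 2 (0.02), repleted replicate 1 (0.02) or repleted replicate 3 (0.00), for BID without repleted replicate 3 (-0.06) and for BAD without repleted replicate 2 (-0.03). Leaving out 1 library, these uncalled differences ranged from -0.38 to 0.01 for BCL2 (the former called), and in repleted against full medium from -0.05 to 0.04 for BAX, -0.11 to 0.02 for BCL2L1, -0.06 to 0.04 for BID and -0.03 to 0.08 for BAD. The cause was not tested. BAX, BAK1, BCL2L1, BBC3, PMAIP1, BID and BCL2L11 were called in the same direction in both depleted comparisons under all 17 alternatives.

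Libraries with the same replicate number had residual correlations of -0.014 to 0.073, those with other numbers -0.061 to 0.042, and 4 of 9 libraries correlated best with their own number. The labels do not say that a number marks a shared batch. With the replicate block 9511 and 9472 genes were called in the depleted comparisons, and among the 10 members BAD against full medium was the only call that changed, beside BCL2L2 (now called) and FOXO1 (no longer called) among the other named genes. Depth is estimated only, so no count intervals are given.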
